A study of Mus musculus with 8 samples.

Results

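The semaphorin, plexin and ephrin guidance genes were examined in chromatin accessibility data from a mouse breast cancer line and 3 drug-resistant derivatives. A list of 50 genes was used: the secreted and membrane-bound semaphorins, their plexin and neuropilin receptors, the EphA and EphB receptors and the ephrins. A region of open chromatin was given to one of these genes when the gene's body was the nearest protein-coding gene body and lay over the region or within 50 kb of it. Of 57417 consensus regions, 291 were assigned in this way, to 46 of the 50 genes. Sema4g, Epha8, Epha10 and Efnb3 had no region. The other 46 had 1 to 19 regions each, with a median of 5, and the regions were 162 to 2011 bp wide. Regions were given by genomic position in mm10.

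PB3 is a mouse mammary cancer line labelled Er-/Pr-/Her2-, that is, without the estrogen receptor, the progesterone receptor and Her2. PB3-Parental was untreated, and PB3-ERI-R, PB3-PAC-R and PB3-VIN-R were resistant derivatives raised with eribulin (spelled Erubilin in places in the labels), paclitaxel and vinorelbine respectively, drugs that act on microtubules, at 300, 500 and 800 nM. Each of the 4 lines had 2 ATAC-seq libraries, in which a transposase cuts and tags open chromatin. The labels speak of resistant clones, give 1 derivative per drug, and do not say that a line's 2 libraries came from separate cultures, so the spread behind each p-value is that between libraries and may be technical. A difference between lines cannot be told apart from a difference between clones.

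Semaphorins are ligands that steer migrating cells and growing axons, mostly by repulsion. The class 3 members are secreted and bind neuropilins, which hand the signal to plexins, while most of the membrane-bound classes bind plexins directly. Eph receptors are tyrosine kinases that bind membrane-tethered ephrins on neighbouring cells, EphA receptors mainly the GPI-anchored ephrin-As and EphB receptors mainly the transmembrane ephrin-Bs. Both systems also act in epithelia, in blood vessels and at the borders between cell groups. Accessibility of a locus is not expression of the gene.

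Libraries held 10521964 to 24052237 counts over all regions. All 291 regions and all 46 loci passed the filter on low counts, as did 57415 regions and 14966 loci overall. The value of a locus is the sum over its regions scaled to the library's total over all loci (locus CPM, with TMM factors), and that of a region is scaled to its total over all regions (region CPM). The summed accessibility of marker loci also set PB3-ERI-R apart. In locus CPM, the 12 epithelial markers summed to 514 to 670 in PB3-Parental and 1397 to 1602 in PB3-ERI-R, with 9 loci higher and 0 lower. For 11 measured mesenchymal markers the sums were 1128 to 1168 and 750 to 786, with 1 higher and 7 lower. For 11 neural markers they were 543 to 563 and 654 to 667, with 4 higher and 6 lower, and for 7 endothelial markers 303 to 331 and 253 to 261, with 2 higher and 3 lower. For 4 immune markers they were 66.1 to 97.6 and 14.9 to 15.9, with 0 higher and 4 lower. No measured marker locus was at 0 counts in any line. The part of these shifts in the results on guidance genes was not tested.

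Most guidance loci differed in accessibility between PB3-ERI-R and PB3-Parental, in both directions. Of the 46 loci, 34 were called at an edgeR adjusted p under 0.05, 21 higher and 13 lower. Of all 14966 loci, 58.3% were called, 28% higher and 30.3% lower. The median absolute log2 fold change was 0.91 over the guidance loci and 0.48 over all loci, and the median signed values were 0.28 and -0.00. The 2 libraries of each line did not overlap for 41 of the 46 guidance loci, including all 34 called ones, against 78.8% of all loci. At the level of regions, 235 of the 291 were called, 115 higher and 120 lower, against 73% of all regions, 35.4% higher and 37.6% lower. Called regions are written below as gained or lost. With scaling that follows the signal level (loess offsets), the 234 called regions split into 132 gained and 102 lost. The split of all regions with these offsets is not given here, so that shift is not read as particular to guidance regions.

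**Figure D1:**
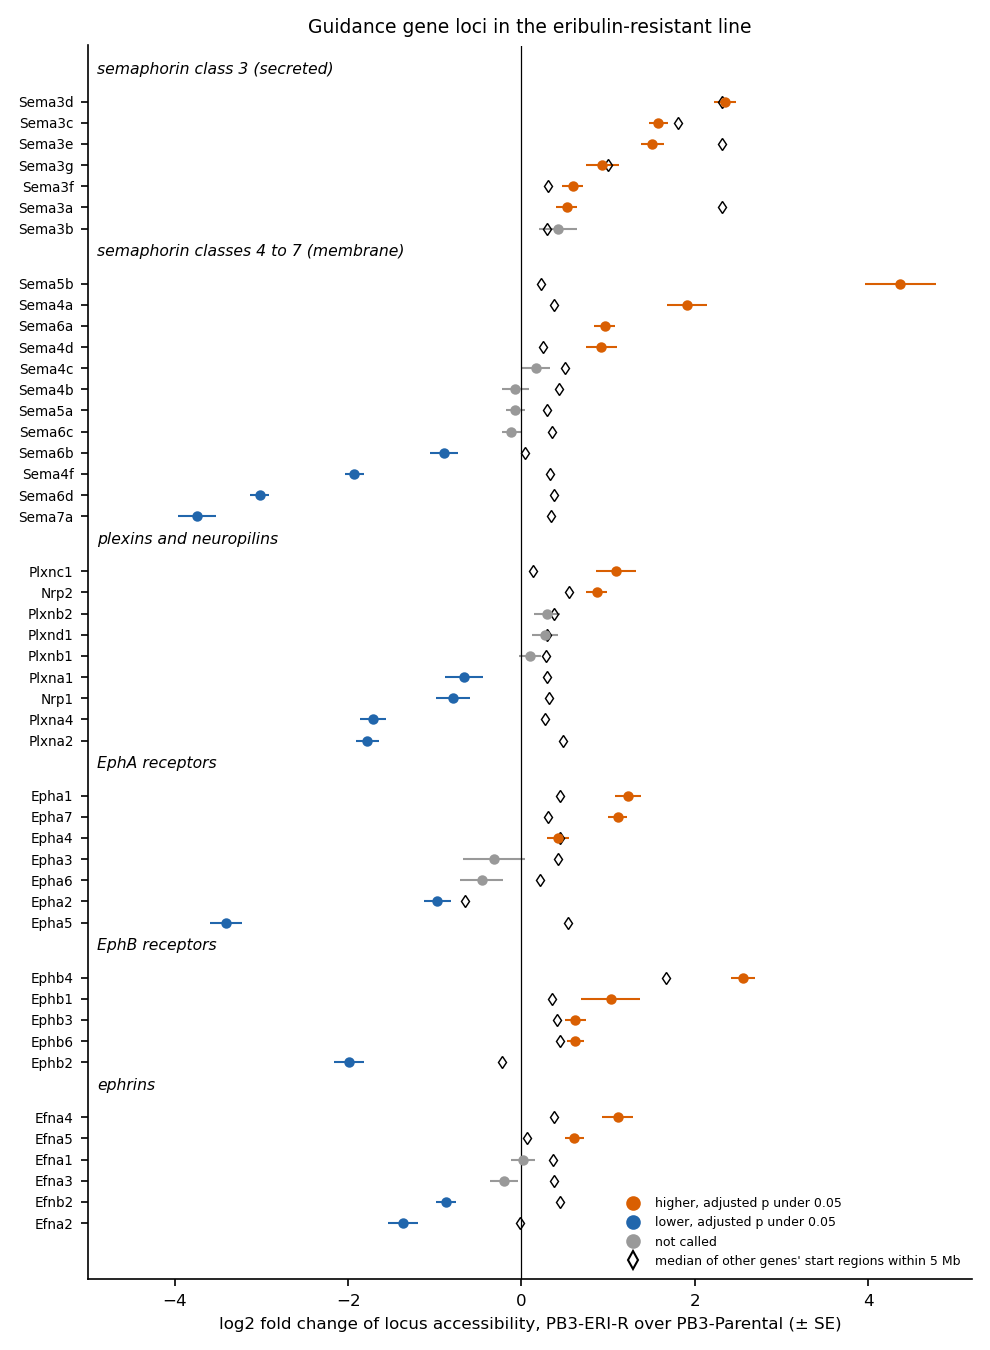
The log2 fold change of each of the 46 guidance loci in PB3-ERI-R over PB3-Parental (x axis, ± SE) by class, with loci called higher in orange, called lower in blue and uncalled in grey. Diamonds give the median log2 fold change of the start regions of other genes within 5 Mb, where at least 5 such regions were measured. They come from the fit over regions, whose scale differs from that of the loci. The 6 called class 3 semaphorins lie to the right of 0, and the largest decreases are at Sema7a, Epha5 and Sema6d.

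The secreted class 3 semaphorins were the class in which no locus was called lower. Of 7 loci, 6 rose and Sema3b did not pass the test, and their median log2 fold change was 0.93. The largest change was at Sema3d, a secreted ligand that takes part in heart and vessel patterning, at chr5:12383161-12588953. Its locus CPM was 76.3 and 97.0 in PB3-Parental, 436 and 449 in PB3-ERI-R, 75.3 and 81.8 in PB3-PAC-R and 77.3 and 73.9 in PB3-VIN-R. Only the PB3-ERI-R libraries were high, by a log2 fold change of 2.35 ± 0.13 (SE, adjusted p = 1.62e-07, edgeR). Of its 17 regions, 14 were gained and 2 lost.

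The region at the Sema3d gene start was nearly closed outside PB3-ERI-R. This region, chr5:12383178-12383744, began just past the start itself. It held 4 counts over both parental libraries and 335 over both PB3-ERI-R libraries. Its region CPM was 0.120 and 0.133 in PB3-Parental and 16.8 and 17.1 in PB3-ERI-R, and in PB3-PAC-R and PB3-VIN-R it ran from 0.0416 to 0.342. The log2 fold change was 6.98 ± 0.47 (adjusted p = 1.19e-08, edgeR), and a peak was called there in PB3-ERI-R and in no other line. Inside the gene, 21.2 kb past the start, chr5:12404186-12404602 rose from 0.120 and 0.200 to 29.6 and 22.5.

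Sema3c and Sema3e shared the direction but had open starts in every line. Sema3c, a ligand studied in heart outflow development and in tumour cell migration, had a locus CPM of 126 and 143 in PB3-Parental, 417 and 389 in PB3-ERI-R, and 129 to 138 in the other lines. PB3-ERI-R lay above all 6 other libraries, with a log2 fold change of 1.58 ± 0.11 (adjusted p = 5.84e-07, edgeR). Its start region, chr5:17574134-17575166, rose from 25.9 and 28.0 to 144 and 125 region CPM and carried a peak in all 4 lines. Sema3e, which signals through Plxnd1 without a neuropilin, had a locus CPM of 105 and 129 in PB3-Parental and 326 and 340 in PB3-ERI-R. Its log2 fold change was 1.51 ± 0.13 (adjusted p = 3.01e-06, edgeR), and its start region, chr5:14025142-14025741, rose from 16.3 and 12.2 to 63.0 and 56.9.

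These promoters are shown, with those of Epha1 and Epha5 below, because their start regions were the most changed among the loci described by the naming rule. Each runs from 250 bases before to 50 bases after a RefSeq gene start (GRCm38.p6, which is mm10), 5′ to 3′ on the gene's strand. Capitals mark matches, on either strand, to 6 motifs. The AP-1 motif was TGANTCA. The E-box bound by Zeb and Snai factors was CAGGTG. The grainyhead motif was AACCNGGTT. For ETS factors the letters CCGGAAG were searched. For TEAD factors they were GGAATG. The GC box of the Sp and Klf factors was CCCGCCC. No 2 of the matches shown overlap.
Sema3d: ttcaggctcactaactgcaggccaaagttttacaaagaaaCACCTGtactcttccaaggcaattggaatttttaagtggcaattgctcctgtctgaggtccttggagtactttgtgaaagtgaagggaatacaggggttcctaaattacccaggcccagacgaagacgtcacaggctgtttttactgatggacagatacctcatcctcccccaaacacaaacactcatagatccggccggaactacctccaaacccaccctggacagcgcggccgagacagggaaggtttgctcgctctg
Sema3c: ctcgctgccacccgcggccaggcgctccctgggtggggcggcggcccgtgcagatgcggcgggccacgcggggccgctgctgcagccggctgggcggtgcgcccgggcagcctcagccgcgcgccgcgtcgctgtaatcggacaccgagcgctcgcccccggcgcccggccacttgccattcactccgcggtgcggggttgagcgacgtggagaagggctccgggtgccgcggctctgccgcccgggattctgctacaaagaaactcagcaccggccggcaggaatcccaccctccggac
Sema3e: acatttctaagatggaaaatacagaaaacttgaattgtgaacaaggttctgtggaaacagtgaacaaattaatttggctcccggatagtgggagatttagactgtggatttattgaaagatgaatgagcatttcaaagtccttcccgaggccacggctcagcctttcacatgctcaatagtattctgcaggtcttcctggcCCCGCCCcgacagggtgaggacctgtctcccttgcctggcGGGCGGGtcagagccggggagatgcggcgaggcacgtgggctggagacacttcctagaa
The Sema3d promoter, chr5:12382916-12383215 on the plus strand, had 49.7% G and C and 1 match, to the E-box, 210 bases before the start. Of its 300 bases, 38 lay in the changed region, and the E-box lay upstream of that region. Sema3c, chr5:17574566-17574865 on the plus strand, had 75.7% G and C and no match to these letters, and all 300 bases lay in its start region. Sema3e, chr5:14025026-14025325 on the plus strand, had 50.7% G and C and 2 GC boxes, 49 and 9 bases before the start, with 184 bases in its start region. Over 32851 promoters of the same length, the E-box was found in 20.2%, the GC box in 25.6%, TEAD in 14.7%, ETS in 8.9%, AP-1 in 7.8% and grainyhead in 0.3%. A match is a description of the letters and not a bound site.

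Sema3a, Sema3c, Sema3d and Sema3e all lie on chromosome 5, where the starts of neighbouring genes rose too. Over the start regions of other genes within 5 Mb, the median log2 fold change was 2.31 for Sema3a (12 regions), 1.81 for Sema3c (11 regions), 2.31 for Sema3d (11 regions) and 2.32 for Sema3e (5 regions), and it was 0.37 over all 8731 start regions. These medians come from the fit over regions. With each region set against the start regions around it (gene start offsets), the log2 fold change was 0.41 for Sema3d (adjusted p = 0.0157, edgeR), 0.15 for Sema3c (adjusted p = 0.276) and -0.12 for Sema3e (adjusted p = 0.458). Where few start regions lay within 5 Mb, as at Sema3e and Epha5, these offsets used a wider stretch or the whole chromosome. Where those were also few, no offset was applied. Window offsets used the median of all regions in the same fixed 5 Mb block, or the chromosome's where under 20 regions were there. With them the log2 fold change was 0.41 for Sema3d (adjusted p = 0.0134, edgeR). Sema3c and Sema3e were lower, at -0.55 (adjusted p = 0.00101) and -0.43 (adjusted p = 0.0134). Sema3a, which collapses growth cones through Nrp1 and A-type plexins, rose by 0.52 ± 0.12 as it stood (adjusted p = 0.00425) and was lower by these offsets, at -1.43 (adjusted p = 4.48e-06). What lies behind the rise along chromosome 5 was not tested.

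Of the 3 class 3 genes on other chromosomes, 2 rose. Sema3g, on chromosome 14, had a locus CPM of 16.0 and 14.1 in PB3-Parental and 27.6 and 29.8 in PB3-ERI-R, while the 4 libraries of the other lines were at 12.1 to 15.4. The log2 fold change was 0.93 ± 0.19 (adjusted p = 0.00138, edgeR), and 0.30 with gene start offsets (adjusted p = 0.208). In the fit over regions, whose scale differs, its 2 regions were at 1.17 and 1.24, beside a median of 1.00 for the 38 start regions nearby. Sema3f, a ligand of Nrp2 on chromosome 9, rose by 0.59 ± 0.12 (adjusted p = 0.00203). Its neighbour Sema3b, with 1 region, was at 15.5 and 15.8 locus CPM in PB3-Parental and 23.7 and 18.3 in PB3-ERI-R. These did not overlap, but the locus was not called (log2 0.42 ± 0.22, adjusted p = 0.118). In the fit over regions, that same region was called gained (0.70 ± 0.23, adjusted p = 0.0122, edgeR). Both fits used the same counts there and differ in their scaling. Other loci of 1 region also read higher in the region fit than in the locus fit. The values were 0.45 and 0.17 for Sema4c, 4.65 and 4.37 for Sema5b, and -0.05 and -0.32 for Epha3.

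**Figure D2:**
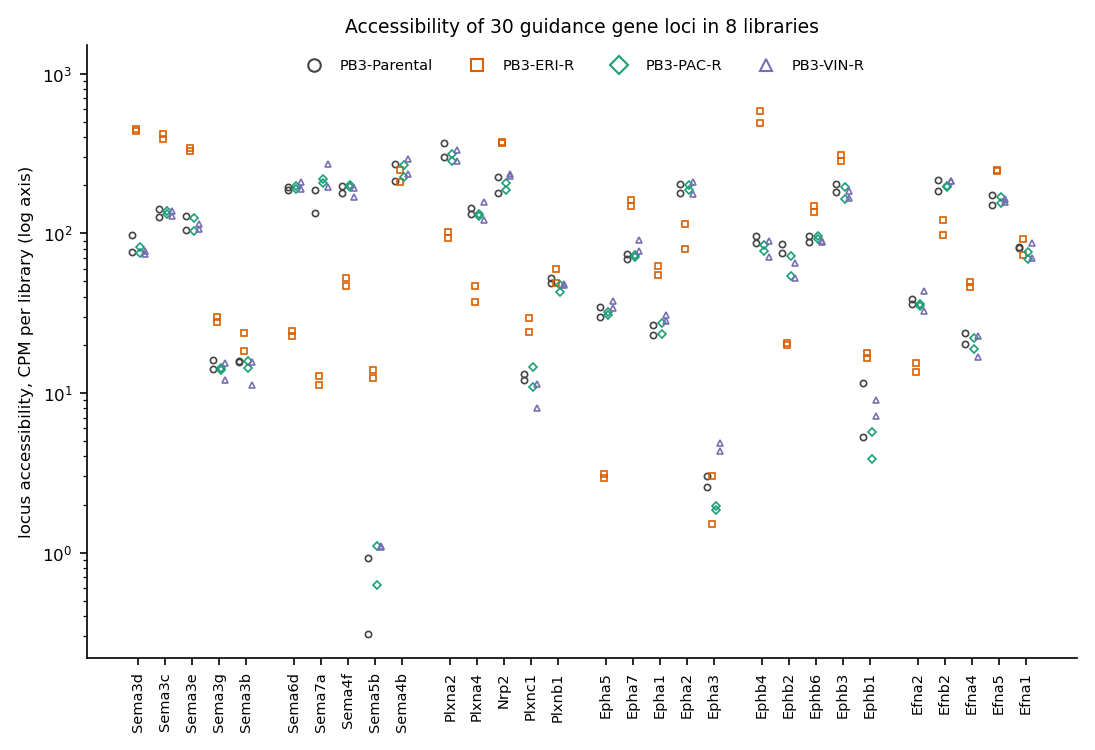
Locus CPM (y axis, log scale) of the 30 guidance loci named by rule, in each of the 8 libraries, with 2 points per line and the lines set side by side within a locus. The PB3-ERI-R squares lie apart from the other lines at most loci, for example above them at Sema3d and Ephb4 and below them at Sema6d, Sema7a and Epha5.

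The membrane-bound semaphorins moved apart from each other. Over the 12 measured loci the median log2 fold change was -0.07: 4 rose, 4 fell and 4 were uncalled. Sema7a, a GPI-anchored semaphorin that binds Plxnc1 and integrins, fell the most of all guidance loci. Sema7a stood at 185 and 134 locus CPM in PB3-Parental, 11.3 and 12.8 in PB3-ERI-R, 219 and 207 in PB3-PAC-R and 273 and 195 in PB3-VIN-R. The PB3-ERI-R libraries lay below all 6 others, with a log2 fold change of -3.74 ± 0.22 (adjusted p = 2.44e-07, edgeR). All 6 of its regions were lost, the start region from 25.04 and 22.7 to 8.82 and 8.64 region CPM and chr9:57971687-57972567, outside the gene, from 60.1 and 32.9 to 0.743 and 0.997.

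At Sema6d and Sema4f every region placed at the gene was lost. Sema6d, a transmembrane ligand of A-type plexins, had a locus CPM of 195 and 186 in PB3-Parental, 22.7 and 24.3 in PB3-ERI-R and 190 to 210 in the other lines. All 12 regions were lost, and the locus changed by -3.02 ± 0.11 (log2, adjusted p = 3.98e-08, edgeR). The region that changed most by the naming rule, chr2:124309353-124310175 in the gene, went from 21.4 and 17.0 to 0.279 and 0.775 region CPM. Of the 7 regions at Sema4f, 1 lay in the gene and the others past its end, up to 49.5 kb away. Its locus CPM went from 197 and 179 to 46.7 and 52.3 (log2 -1.93 ± 0.11, adjusted p = 2.84e-07, edgeR). Near Sema6d, Sema7a and Sema4f the start regions of other genes had median log2 fold changes of 0.37, 0.34 and 0.33, close to the 0.37 over all start regions.

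Among the 4 that rose, Sema5b, a semaphorin with thrombospondin repeats, rested on a single region. That region, chr16:35614152-35614467 in the gene, held 17 counts over both parental and 270 over both PB3-ERI-R libraries. Its region CPM was 0.783 and 0.266 in PB3-Parental, 14.5 and 12.6 in PB3-ERI-R and 0.548 to 0.9987 in the other lines, and the locus rose by 4.37 ± 0.41 (log2, adjusted p = 5.49e-06, edgeR). Sema4a rose by 1.91 ± 0.23 (adjusted p = 3.63e-05), Sema6a by 0.96 ± 0.12 (adjusted p = 4.6e-05) and Sema4d, a ligand of Plxnb1, by 0.92 ± 0.18 (adjusted p = 0.000985). Sema6a was not called with window offsets (0.18, adjusted p = 0.205, edgeR). Too few start regions of other genes were measured around it, with 0 within 5 Mb. Gene start offsets therefore left it at 0.96 and are no check on it. Sema6b fell by 0.89 on the log2 scale (adjusted p = 0.000621). Sema4b had the largest p of the membrane-bound semaphorins, at 271 and 211 locus CPM in PB3-Parental and 250 and 209 in PB3-ERI-R (log2 -0.07 ± 0.16, adjusted p = 0.736). Its 9 regions were not still: 4 were gained and 2 lost, and chr7:80166725-80167142, upstream of the gene, fell from 50.5 and 43.1 to 9.38 and 11.5 region CPM.

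Among the receptors of the semaphorins, 2 of 9 loci rose and 4 fell, with a median log2 fold change of 0.10. Plxna2, a plexin that receives class 6 semaphorins and class 3 signals passed on by neuropilins, lost 16 of its 19 regions and gained 0. Its locus CPM was 370 and 302 in PB3-Parental, 102 and 93.4 in PB3-ERI-R and 285 to 331 in the other lines, a log2 fold change of -1.78 ± 0.13 (adjusted p = 1.2e-06, edgeR). The start region stayed open in all 4 lines, at 41.4 and 30.1 region CPM in PB3-Parental and 50.3 and 42.0 in PB3-ERI-R, and was not called (log2 0.37 ± 0.19, adjusted p = 0.0915). With the locus limited to regions within 1 kb of a gene end, its log2 fold change was -0.08.

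Plxna4, also an A-type plexin, lost 9 of 11 regions and gained 2. Its locus CPM fell from 144 and 132 to 47.0 and 37.1 and was 122 to 157 in the other lines (log2 -1.71 ± 0.15, adjusted p = 3.58e-06, edgeR). The region chr6:32567900-32568324 in the gene held 598 counts over both parental libraries and 3 over both PB3-ERI-R libraries. After scaling for library size this was a ratio of 124.7, with a 95% counting interval of 42.5 to 606.6. Plxna1 fell by 0.66 on the log2 scale (adjusted p = 0.024) and Nrp1, the co-receptor of Sema3a, by 0.79 (adjusted p = 0.00635).

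Nrp2, a co-receptor for Sema3f and for VEGF-C, went the other way from Nrp1. It held 224 and 180 locus CPM in PB3-Parental, 368 and 370 in PB3-ERI-R and 187 to 235 in the other lines (log2 0.87 ± 0.12, adjusted p = 0.0001, edgeR). The start region was not called (0.38 ± 0.17, adjusted p = 0.0664). Of 13 regions, 7 were gained and 2 lost, and chr1:62743104-62743760, 40.1 kb into the gene, rose from 0.722 and 0.532 to 35.9 and 46.5 region CPM. Plxnc1, the plexin that binds Sema7a, rose from 12.03 and 13.1 to 29.3 and 24.1 locus CPM (1.09 ± 0.23, adjusted p = 0.00222), through 1 gained region 46.2 kb upstream of its start. Its only other region, 47.2 kb from the gene body, was not called (-0.33 ± 0.27, adjusted p = 0.288, edgeR), and no region lay in the gene. Plxnb1, the receptor of Sema4d, was at 52.6 and 48.8 in PB3-Parental and 59.6 and 49.1 in PB3-ERI-R, which overlapped (0.10 ± 0.13, adjusted p = 0.511).

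The EphA receptors were divided, with 3 of 7 loci higher, 2 lower and a median log2 fold change of -0.32. At Epha5, a receptor best known from axon mapping, both regions were lost, and locus CPM went from 34.7 and 29.8 in PB3-Parental to 3.13 and 2.93 in PB3-ERI-R. The other lines stayed at 31.0 to 37.7, and the log2 fold change was -3.41 ± 0.19 (adjusted p = 1.96e-07, edgeR). The start region itself, chr5:84417022-84417783, went from 26.7 and 22.9 to 3.16 and 2.88 region CPM, and its peak was called in every line but PB3-ERI-R. Epha5 is on chromosome 5 as well, with a median of 0.54 for 9 start regions of other genes within 5 Mb. The median of all 29 regions in its 5 Mb block was -1.76. The locus was at -1.65 with window offsets (adjusted p = 2.85e-05, edgeR) and at -3.53 with gene start offsets (adjusted p = 1.75e-07).

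Epha1, a receptor found mostly in epithelia, showed the opposite at its start. The region chr6:42372840-42373533 was at 8.43 and 9.78 region CPM in PB3-Parental, 49.9 and 44.8 in PB3-ERI-R and 4.88 to 9.93 in the other lines. PB3-ERI-R was above all 6 other libraries (log2 2.38 ± 0.30, adjusted p = 5.27e-06, edgeR), and a peak was called in that line alone. The locus rose from 26.8 and 23.2 to 62.7 and 54.5 CPM (1.23 ± 0.15, adjusted p = 4.13e-05). The promoters of these 2 receptors, whose starts changed in opposite directions, are given as above.
Epha5: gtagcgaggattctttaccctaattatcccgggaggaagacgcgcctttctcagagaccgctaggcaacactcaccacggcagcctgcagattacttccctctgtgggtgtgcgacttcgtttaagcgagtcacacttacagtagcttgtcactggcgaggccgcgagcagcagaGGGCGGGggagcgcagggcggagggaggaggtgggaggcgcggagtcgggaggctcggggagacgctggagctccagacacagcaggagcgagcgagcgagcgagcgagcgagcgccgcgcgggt
Epha1: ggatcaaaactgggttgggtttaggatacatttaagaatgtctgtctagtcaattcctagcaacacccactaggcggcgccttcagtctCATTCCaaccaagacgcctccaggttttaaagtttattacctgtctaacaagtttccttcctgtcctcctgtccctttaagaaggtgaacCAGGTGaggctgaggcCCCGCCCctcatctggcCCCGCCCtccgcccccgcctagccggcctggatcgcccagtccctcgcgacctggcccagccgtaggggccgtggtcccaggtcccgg
The Epha5 promoter, chr5:84417333-84417632 on the minus strand, had 64.3% G and C and 1 GC box, 75 bases before the start. The Epha1 promoter, chr6:42373219-42373518 on the minus strand, had 58.0% G and C, an E-box 71 bases before the start, a TEAD match 161 bases before it and GC boxes at 55 and 38 bases before it. Both promoters lay entirely inside their changed regions.

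Epha7 rose at the start and just inside the gene. Its locus CPM was 74.4 and 69.5 in PB3-Parental and 149 and 162 in PB3-ERI-R (1.11 ± 0.11, adjusted p = 8.22e-06, edgeR), and its start region rose from 31.7 and 31.7 to 82.8 and 92.2 region CPM. Epha2, the ephrin-A1 receptor that is often abundant in breast tumours, lost 6 of 8 regions. Its locus CPM was 204 and 178 in PB3-Parental and 115 and 79.9 in PB3-ERI-R (-0.97 ± 0.16, adjusted p = 0.00045). On that part of chromosome 4 the start regions of other genes within 5 Mb had a median of -0.65, and with gene start offsets Epha2 was at 0.05 (adjusted p = 0.814). Epha4 rose by 0.42 ± 0.13 (adjusted p = 0.0191). It was not called with window offsets (0.09, adjusted p = 0.578, edgeR) or with gene start offsets (0.33, adjusted p = 0.0577). Epha3, with 1 region of few counts, was at 2.58 and 3.03 in PB3-Parental and 1.52 and 3.03 in PB3-ERI-R and was not called (-0.32 ± 0.36, adjusted p = 0.471).

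All 5 EphB receptor loci were called, 4 higher and 1 lower. Ephb4, the receptor of ephrin-B2 that marks veins, gained all 5 of its regions. It was at 96.1 and 86.8 locus CPM in PB3-Parental, 586 and 494 in PB3-ERI-R and 71.4 to 89.7 in the other lines (2.56 ± 0.14, adjusted p = 1.96e-07, edgeR). The start region, chr5:137349541-137350508, rose from 44.2 and 40.1 to 175 and 156 region CPM, and chr5:137376201-137376507, just past the gene, from 2.71 and 1.20 to 49.8 and 42.9. Ephb4 also lies on chromosome 5, with a neighbouring start median of 1.67, and remained higher with gene start offsets, at 1.28 (adjusted p = 1.8e-05).

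Ephb2, a kinase-active relative, lost all 7 regions, and its locus CPM fell from 85.1 and 75.3 to 19.9 and 20.6 (-1.99 ± 0.17, adjusted p = 2.82e-06, edgeR). The other lines were at 52.6 to 72.6, below the parental libraries and far above PB3-ERI-R. Ephb3 rose from 203 and 182 to 308 and 285 locus CPM (0.62 ± 0.12, adjusted p = 0.000949) and Ephb6, which lacks kinase activity, from 96.8 and 88.4 to 148 and 136 (0.62 ± 0.10, adjusted p = 0.000266). Neither was called when its locus was limited to regions inside the gene body, where the log2 fold change was 0.10 for Ephb3 (adjusted p = 0.442) and 0.25 for Ephb6 (adjusted p = 0.0811). At Ephb3, chr16:21195266-21195745, 9.3 kb upstream, rose from 1.75 and 1.53 to 20.2 and 23.4 region CPM.

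Ephb1 had 2 regions that changed in opposite directions. The locus was at 11.5 and 5.28 CPM in PB3-Parental and 16.6 and 17.8 in PB3-ERI-R (1.03 ± 0.34, adjusted p = 0.0225, edgeR), and it lost its call without the parental replicate 2 (0.58, adjusted p = 0.145) and without either PB3-ERI-R library (1.09 and 1.00, adjusted p = 0.0623 and 0.0757). One region, chr9:102300635-102301122, fell from 9.51 and 4.53 to 1.02 and 1.55 region CPM. The other, chr9:102088564-102088980, described after its values were seen, held 2 counts over both parental and 325 over both PB3-ERI-R libraries, a scaled ratio of 259.7 with a 95% counting interval of 71.3 to 2153.3.

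Of 6 ephrin loci, 2 rose and 2 fell, with a median log2 fold change of -0.09. Efnb2, the transmembrane ligand of Ephb4, had a locus CPM of 216 and 185 in PB3-Parental, 121 and 97.8 in PB3-ERI-R and 195 to 214 in the other lines (-0.87 ± 0.12, adjusted p = 0.00012, edgeR). Its start region, in contrast, rose from 60.4 and 57.6 to 98.8 and 78.1 region CPM (0.58 ± 0.16, adjusted p = 0.00406), while its 4 other regions were lost. Set against the median of the 48 regions in its 5 Mb block, which was -3.13, the locus was higher, at 2.26. With gene start offsets it was lower, at -0.96 (adjusted p = 6.92e-05, edgeR), beside a median of 0.44 for 30 start regions nearby. The direction of the locus therefore depends on the reference.

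Efna2 fell from 39.0 and 36.2 to 13.6 and 15.5 locus CPM (-1.37 ± 0.17, adjusted p = 5e-05, edgeR) through 1 lost region just upstream of the gene, which went from 20.5 and 20.4 to 0.464 and 1.66 region CPM. Efna4 rose from 23.8 and 20.3 to 49.3 and 45.9 (1.11 ± 0.18, adjusted p = 0.000385), including its start region. Efna5 rose from 151 and 174 to 247 and 249 (0.61 ± 0.11, adjusted p = 0.000506), with 4 regions gained and 3 lost. Efna1, the main ligand of Epha2, was at 82.4 and 80.8 in PB3-Parental and 92.1 and 73.0 in PB3-ERI-R, which overlapped (0.02 ± 0.14, adjusted p = 0.925), although its start region was gained (0.57 ± 0.18, adjusted p = 0.0123).

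The genes that carry these signals inside the cell were called in both directions as well. Of all loci, 58.3% were called, 28% higher and 30.3% lower. Of 19 measured loci of a list of semaphorin and plexin effectors, 4 rose and 8 fell, with a median log2 fold change of -0.31. Dpysl5, a member of the collapsin response mediator family, rose from 49.1 ± 0.717 to 259 ± 9.11 locus CPM (SD, n = 2; log2 2.40 ± 0.11, adjusted p = 7.58e-08, edgeR). It lies on chromosome 5 and was at 1.16 with gene start offsets. Dpysl3, of the same family, fell from 164 ± 16.7 to 41.2 ± 0.723 (SD, n = 2; -1.99 ± 0.14, adjusted p = 9.12e-07, edgeR). Of 18 Eph and ephrin effectors, 4 rose and 6 fell, with a median of 0.02. Chn1, a Rac-inactivating protein that acts below EphA4, fell by 2.38 on the log2 scale (adjusted p = 3.04e-07), and Nck2, an adaptor of the Eph receptors, rose by 1.32 ± 0.11 (adjusted p = 1.93e-06). In the separate netrin, Slit and RGM families, 9 of 18 measured loci rose and 6 fell, with a median of 0.42, and the smallest p-values were at Ntng1 (2.45 ± 0.14) and the netrin receptor Unc5c (2.13 ± 0.15).

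Region changes were smaller at gene starts than elsewhere, among guidance genes as among all genes. Of the 291 regions, 32 lay at a gene start, in 29 genes, which is 11.0% against 18.09% of all regions placed at a gene. Of these 32, 21 were gained and 6 lost, where 52.9% of all start regions were called, 45.7% higher and 7.15% lower. The median absolute log2 fold change was 0.73 at starts, 2.46 over 173 regions elsewhere inside the genes and 1.63 over 86 regions outside them. Over all genes these values were 0.44, 1.64 and 1.49. A log2 change of at least 2 in either direction was seen in 18.8% of guidance start regions, 58.4% of the regions inside and 44.2% of those outside, against 7.3%, 43.7% and 41.4% of all. The 6 lost starts were at Sema5a, Sema6b, Sema7a, Epha2, Epha5 and Ephb2. Over all 8731 start regions the median log2 fold change in PB3-ERI-R was 0.37, so 21 gained starts are read against that shift. Without any scaling factor 10 guidance starts were gained and 6 lost, and the matching counts over all starts are not given here.

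**Figure D3:**
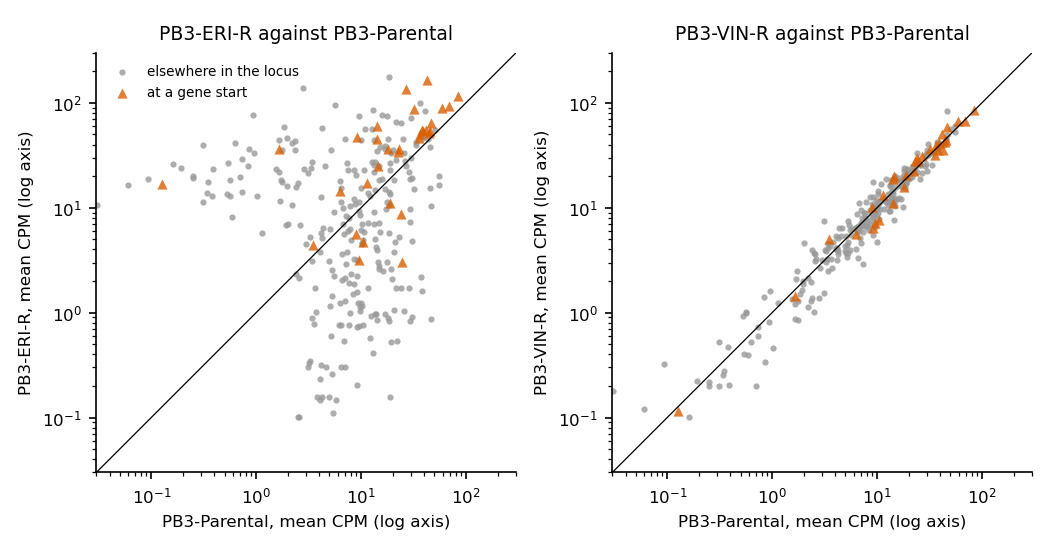
Mean region CPM of the 291 guidance regions in PB3-Parental (x axis) against PB3-ERI-R (left) and PB3-VIN-R (right), both axes on a log scale, with the 32 start regions as orange triangles and the line of equal values in black. In PB3-ERI-R most start regions stay near the line while the other regions scatter widely, and in PB3-VIN-R the regions lie close to the line.

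The authors' deposited peak lists, 1 per line, were set beside these counts. Of the 291 regions, 177 carried a peak of PB3-Parental, 60.8% against 64.6% of all regions, and 145 one of PB3-ERI-R, 49.8% against 52.4%. For PB3-PAC-R there were 187, 64.3% against 67.4%, and for PB3-VIN-R 220, 75.6% against 78.8%. The PB3-VIN-R libraries held the most counts, and the part of depth in these numbers was not tested. In every line but PB3-ERI-R a peak was called over 89 regions, 30.6% against 26.9% of all regions, and in PB3-ERI-R alone over 60 regions, 20.6% against 16.9%. Peaks in all 4 lines covered 74 regions, 25.4% against 31.4%. At starts 62.5% of guidance regions had a peak in every line, against 81.0% of all start regions.

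**Figure D4:**
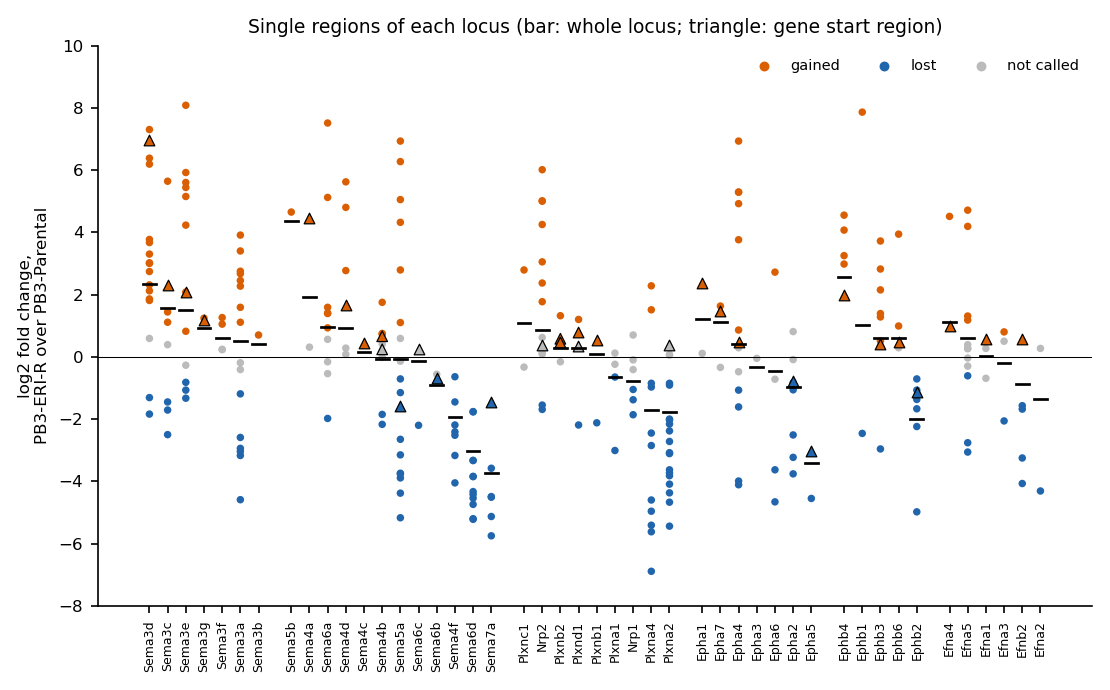
Log2 fold change of each single region in PB3-ERI-R over PB3-Parental (y axis) for the 46 loci, ordered by class, with gained regions in orange, lost regions in blue, uncalled regions in grey, triangles for start regions and a bar for the whole locus. Loci such as Sema6d and Ephb4 have all points on one side of 0, and loci such as Sema5a and Epha4 have points far on both sides of a bar near 0.

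Gains and losses often sat in the same locus. Of 42 guidance loci with at least 2 regions, 18 had both a gained and a lost region, 42.9% against 41.9% of all such loci. Sema5a, a large transmembrane semaphorin described here after its values were seen, is an example. Its locus CPM was 192 and 187 in PB3-Parental and 183 and 178 in PB3-ERI-R (-0.07 ± 0.11, adjusted p = 0.599, edgeR), with 10 regions lost and 6 gained. The 10 lost regions were those from 12 kb before the start to 165.3 kb after it, and their summed CPM went from 134 to 23.4. The 6 gained regions ran from 250.3 to 366.2 kb after the start, and their summed CPM went from 20.5 to 155. The sums follow from the choice of regions by their calls and are given without a test. The most changed regions were chr15:32322531-32323254, which went from 25.04 and 34.0 to 0.650 and 0.997 region CPM, and chr15:32494924-32495309, which went from 0.120 and 0.266 to 24.6 and 23.5.

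Sums over gained and lost regions were also far apart at Epha4, Nrp2 and Sema3a. At Epha4, 7 regions were gained and 4 lost, with summed CPM from 63.9 to 211 and from 60.9 to 15.9. At Nrp2 the 7 gained regions went from 19.5 to 220 and the 2 lost ones from 23.0 to 7.46, and at Sema3a 8 gained regions went from 53.5 to 249 and 6 lost ones from 80.4 to 10.5. A locus sum therefore describes the balance of its regions, not each of them.

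**Figure D5:**
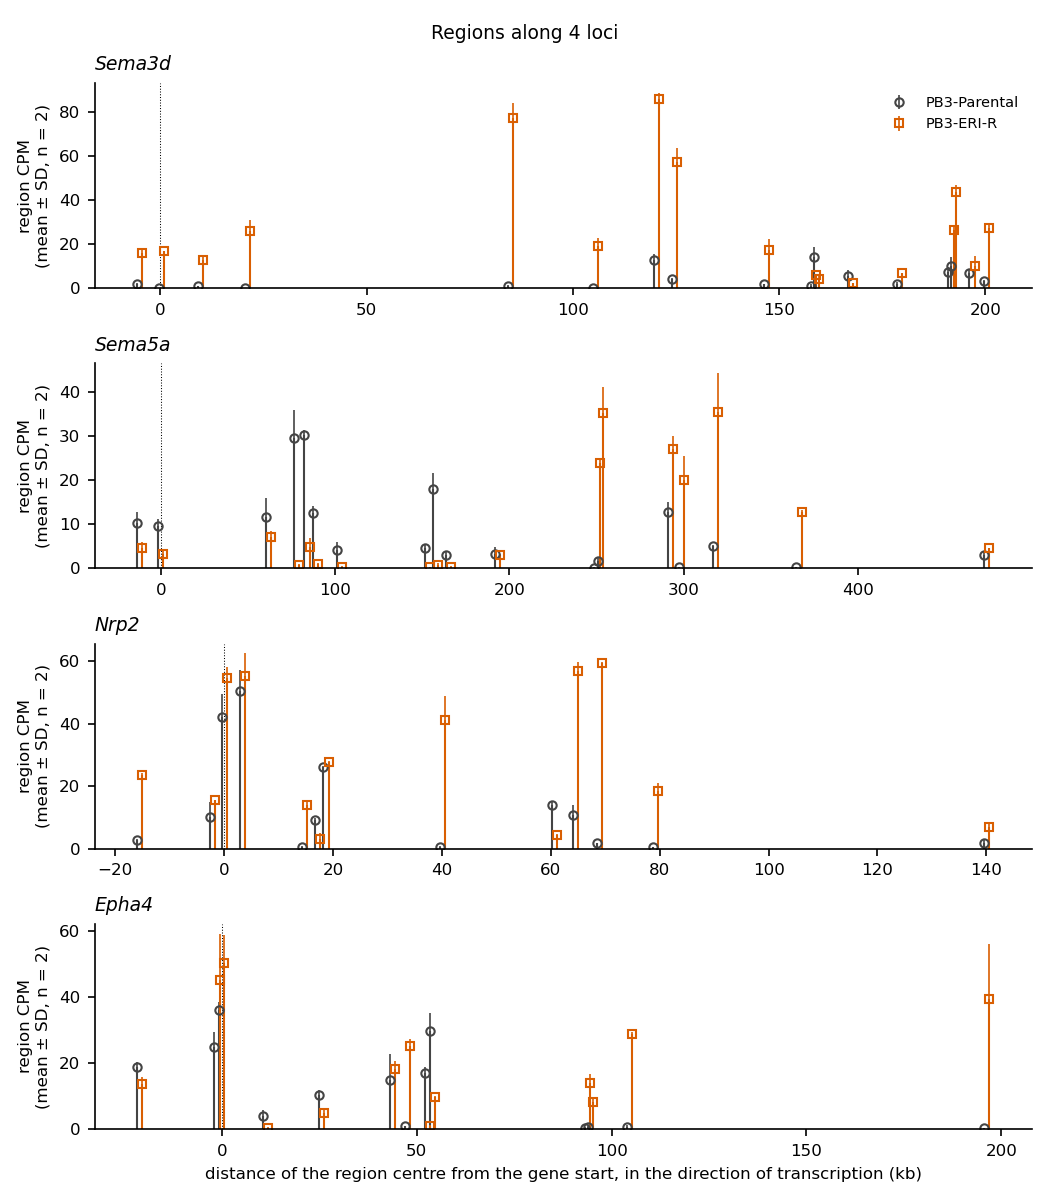
Mean region CPM (y axis, ± SD of 2 libraries) along Sema3d, Sema5a, Nrp2 and Epha4 by distance from the gene start in kb (x axis, positive in the direction of transcription), with PB3-Parental as dark circles and PB3-ERI-R as orange squares, shifted slightly apart. At Sema5a the circles are high up to 165.3 kb and the squares are high from 250.3 to 366.2 kb, while at Sema3d the squares are above the circles at nearly all regions.

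Few guidance regions were called between the parental line and the paclitaxel-resistant or vinorelbine-resistant line. The 3 comparisons with PB3-Parental share its 2 libraries. For PB3-PAC-R, edgeR and DESeq2 each called 0 of 46 loci and 0 of 291 regions, while edgeR called 0.114% of all loci and 0.0853% of all regions. At an unadjusted p under 0.05 there were 3 loci and 19 regions, beside 852 of all 14966 loci and 3316 of all 57415 regions. Locus log2 fold changes ran from -0.81 to 0.46 and 43 of 46 were under 0.5 in size, with standard errors of 0.10 to 0.54. In PB3-VIN-R 0 loci were called by edgeR or by DESeq2, against 0.648% of all loci, and log2 fold changes ranged from -0.63 to 0.79. At an unadjusted p under 0.05 there were 6 of 46 loci, beside 1066 of all 14966. With the replicate number as a block, edgeR called 3 guidance regions and 0 loci in the paclitaxel line, beside 636 regions and 163 loci in all. In the vinorelbine line that fit called 12 guidance regions and 2 loci, beside 2717 regions and 461 loci in all. Between PB3-VIN-R and PB3-PAC-R 0 loci and 0 regions were called by either tool, against 0.0334% and 0.00871% by edgeR. For this pair 2 loci and 13 regions were at an unadjusted p under 0.05, beside 657 of all 14966 loci and 2491 of all 57415 regions. Median standard errors of a locus against PB3-Parental were 0.15 in the paclitaxel line and 0.14 in the vinorelbine line, and differences of that order were not detectable.

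Of the guidance loci in PB3-VIN-R, the one nearest to a call was Sema7a, the locus that fell most in PB3-ERI-R. Its log2 fold change was 0.55 ± 0.18 for PB3-VIN-R (adjusted p = 0.339, edgeR) and 0.41 ± 0.18 for PB3-PAC-R (adjusted p = 0.837), both short of the threshold. For Ephb2 it was -0.45 ± 0.15 in PB3-VIN-R (adjusted p = 0.391, edgeR). Between the 2 lines Epha3 differed most, by 1.26 ± 0.33 on the log2 scale (adjusted p = 0.531, edgeR), with 4.31 and 4.83 locus CPM in PB3-VIN-R and 1.84 and 1.97 in PB3-PAC-R.

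In PB3-VIN-R against PB3-Parental, 35 guidance regions were at an unadjusted p under 0.05, beside 5667 of all 57415. A single guidance region was called, beside 0.678% of all regions in either direction and 0.289% lower. It was chr6:32377178-32377692 in Plxna4. Its region CPM was 6.62 and 8.19 in PB3-Parental, 3.28 and 2.58 in PB3-VIN-R, 3.46 and 3.29 in PB3-PAC-R and 3.90 and 3.65 in PB3-ERI-R. The parental libraries lay above all 6 libraries of resistant lines. The log2 fold change was -1.33 ± 0.26 in PB3-VIN-R (adjusted p = 0.0364, edgeR), -1.13 in PB3-PAC-R (adjusted p = 0.197) and -0.97 ± 0.28 in PB3-ERI-R (adjusted p = 0.00612). The call in PB3-VIN-R is not firm: DESeq2 called 0 guidance regions, and leaving out the parental replicate 2, either PB3-ERI-R library or either PB3-VIN-R library left 0.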

How the data were processed

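Chromatin accessibility was measured in 8 libraries, 2 for each of 4 lines, grouped by the cell line in the labels. Per the submitters' processing notes, Bowtie2 2.2.6, MACS2 2.1.1 and featureCounts were among the tools, with the builds mm10 and GRCm38. The unit counted, reads or fragments, is not given in the sources used here. Raw counts for each consensus region, without normalization, were taken from the deposited table. The deposited peak lists, 1 per line, hold a peak score, a fold enrichment ratio over the local background and a -log10 q value per summit. The deposited region list holds other values, positions counted from 0.

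Regions were placed at the nearest of 21883 protein-coding gene bodies of RefSeq GRCm38.p6, inside or within 50 kb. Of the guidance regions, 2 lay equally near another gene. Gene starts came from the RefSeq promoter table, which held 44 of the 50 genes. A start region overlaps the window from 250 bases before to 50 bases after a start. Counts of regions, and their sums per locus, were tested with edgeR 4.0.16 (filterByExpr, TMM, quasi-likelihood, all 8 libraries, 1 term per line) and Benjamini-Hochberg adjustment over all regions or loci, called at 0.05. Common biological coefficients of variation were 0.161 and 0.112. In the fit over regions, the TMM factors of the PB3-ERI-R libraries were 0.8023 and 0.8584, those of other libraries 1.036 to 1.09. The fit over loci had its own factors. Medians of start regions and of 5 Mb blocks are on the scale of the region values, and window offsets applied them to loci unchanged. Tests were run on simulated data first. A fold change carries its SE. Ratios with 3 or fewer counts in a line carry exact counting intervals, which cover counting error only. The naming rule took, per class, the 4 loci with the smallest adjusted p in PB3-ERI-R and the 1 with the largest, their most changed called region (average log2 CPM 2 or more), and their start regions. From each other list it took the 2 loci with the smallest p, and for promoters the 5 named loci with the most changed start regions. The members, lists and rules were chosen with earlier results of these data known. Gene start offsets and the other reference lines were chosen after seeing the data. The alternatives are under the closing section.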

Additional observations from a re-analysis of the deposited data

How the results depend on the processing

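The 34 called loci in PB3-ERI-R against PB3-Parental numbered 31 to 34 on leaving out each library and 27 to 36 under the other settings, except that 15 (9 higher and 6 lower) were called with only regions within 1 kb of a gene end, where fewer loci have counts. Of the 34, 26 were called the same way with window offsets (18 higher and 16 lower in all) and 28 with gene start offsets (16 higher and 13 lower). The 28 include Sema6a, which was at 0.96 with and without gene start offsets. Called regions numbered 215 to 236 on leaving out each library, against 235. Called start regions, 27, were 16 without a scaling factor and 17 against the median of regions in the same 5 Mb block (window offsets). In PB3-VIN-R against PB3-Parental the 1 called region became 0 with DESeq2 size factors, without a scaling factor, with the DESeq2 test, with only the 2 lines compared, with window offsets and with gene start offsets, and 0 to 3 on leaving out each library, with 3 without PB3-Parental replicate 1 and 2 without either PB3-PAC-R library. Among named loci, direction turned for Sema3c (-0.55) and Sema3e (-0.43) with window offsets, Sema3e (-0.12) and Epha2 (0.05) with gene start offsets, Efnb2 (2.26) with window offsets and (0.22) near gene ends, and Efna5 (-0.09) near gene ends. The cause was not tested. Sema3g, Plxna2, Nrp2, Epha2, Ephb3 and Ephb6 lost their calls with some restricted sets of regions. Replicate numbers are shared between lines. The differences between replicates correlated, over 52084 regions, at 0.39, 0.428 and 0.479 among the lines other than PB3-ERI-R, at 0.148 and 0.209 between PB3-ERI-R and the other resistant lines and at 0.091 between PB3-ERI-R and PB3-Parental. The labels do not say what a number marks, and no pairing was assumed in the values above. With a replicate block, called regions against PB3-Parental numbered 3 (PB3-PAC-R) and, for the vinorelbine line, 12, the called loci 2 in PB3-VIN-R, and the called loci in PB3-ERI-R 36. With 2 libraries per line, small differences between PB3-Parental and the paclitaxel and vinorelbine lines were not detectable at this depth and spread.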
